A study of Mus musculus with 24 samples.

Results

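Slc12a3, Pvalb, Trpm6, Cnnm2, Egf, Wnk1, Wnk4, Stk39 and Klhl3 are genes of the distal convoluted tubule, the short stretch of the nephron that follows the thick ascending limb. They were taken by gene name, 9 of the 54393 genes counted in whole mouse kidneys at embryonic day 18.5. The study made mice lacking Dmrt2, a DM-domain transcription factor, or the neighbouring homeobox genes Hmx3 and Hmx2, and asked how these factors direct the subtypes of intercalated cells, acid-base cells of the collecting duct. Bulk RNA sequencing covered 24 libraries from 3 mouse lines, each set beside control littermates of its own line: Dmrt2 knockouts (3 and 3 controls), Hmx3 Hmx2 knockouts (6 and 6) and knockouts labelled for all 3 genes, or 3XKO (3 and 3). The labels name the lines Dmrt2, Hmx2/Hmx3 and Dmrt2/Hmx2/Hmx3. Descriptions of Hmx3 Hmx2 control replicates 1 to 3 end in WT, and no other control genotype is given. The alleles, the exons removed and whether each library was a separate embryo are not described. P-values therefore measure the spread between these libraries, which may be partly technical. Every group but the Dmrt2 controls held libraries with and without Y-linked reads, so those groups came from more than a single embryo. The Hmx3 Hmx2 libraries came in 2 tables, for replicates 1 to 3 and 4 to 6 of each group.

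The distal convoluted tubule takes up sodium chloride from the urine through the cotransporter NCC, which Slc12a3 encodes and which thiazide diuretics block. WNK kinases activate the kinase SPAK, the product of Stk39, and SPAK phosphorylates and activates NCC. KLHL3 is an adaptor that brings WNK kinases to a cullin ubiquitin ligase for degradation, and inherited faults in this chain raise blood pressure and potassium. The same cells set how much magnesium leaves in the urine: TRPM6 is the apical magnesium channel, CNNM2 is a basolateral protein needed for magnesium balance, and EGF from these cells stimulates TRPM6. Parvalbumin, from Pvalb, is a calcium-binding protein of the early segment in adult mice.

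RefSeq windows upstream of a start of Cnnm2, Trpm6 and Klhl3 are shown because these were the members whose CPM lay below every control in the libraries labelled triple knockout. The RefSeq starts were not placed on the annotation of the deposited tables, so whether transcripts in these kidneys begin there was not checked. The windows are in coordinates of GRCm38.p6, while gene positions elsewhere are those of the deposited tables on mm39. Each is the 230 bases that end 20 bases before the RefSeq start, read along the gene's own strand. Capitals mark the core ACANTGT of DM-domain binding, which reads the same on both strands, or the core CAAGTG of Hmx homeodomain binding, on the other strand CACTTG. The windows lie at chr19:46761359-46761588 (plus strand) for Cnnm2, chr19:18749480-18749709 (plus strand) for Trpm6 and chr13:58113668-58113897 (minus strand) for Klhl3.
Cnnm2: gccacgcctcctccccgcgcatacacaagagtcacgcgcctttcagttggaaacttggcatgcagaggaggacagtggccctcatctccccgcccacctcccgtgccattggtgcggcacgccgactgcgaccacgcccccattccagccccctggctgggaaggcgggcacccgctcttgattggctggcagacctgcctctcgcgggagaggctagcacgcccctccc
Trpm6: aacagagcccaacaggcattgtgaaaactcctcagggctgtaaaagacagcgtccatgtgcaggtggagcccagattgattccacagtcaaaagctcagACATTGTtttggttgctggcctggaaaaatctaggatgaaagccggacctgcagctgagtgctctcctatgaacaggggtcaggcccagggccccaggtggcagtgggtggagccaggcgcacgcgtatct
Klhl3: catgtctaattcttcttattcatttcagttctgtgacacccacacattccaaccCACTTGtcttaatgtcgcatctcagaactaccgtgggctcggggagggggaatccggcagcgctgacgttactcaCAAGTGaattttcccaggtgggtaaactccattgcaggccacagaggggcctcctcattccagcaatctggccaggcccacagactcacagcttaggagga

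The Trpm6 window held 1 DM-domain core, whose first base lies 151 bases before the start, and no Hmx core. The Klhl3 window held 2 Hmx cores, 196 and 121 bases before the start, and no DM-domain core. Neither core was in the Cnnm2 window. All 9 members had a RefSeq window, 11 in all since Egf and Pvalb had several starts, and in the others an Hmx core occurred in Slc12a3 (78 bases before the start) and in 1 Egf window (66 bases before). Of 32851 RefSeq windows of this length, 6.09% held the DM-domain core and 10.89% the Hmx core. A match is a run of letters, not a binding site, and a window without one says only that these letters are not in it.

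The targeted genes were compared first. Dmrt2 stood at 1.56 to 2.26 CPM, the usual read count relative to the library's total, here TMM-scaled, in Dmrt2 knockouts and at 12.2 to 14.9 CPM in their controls. Hmx2 stood at 0 to 0.0604 CPM in Hmx3 Hmx2 knockouts against 1.57 to 2.25 CPM in controls, and at 0 to 0.0211 against 2.31 to 3.31 CPM in the triple line. Hmx3 had few reads in these 2 lines, at most 0.137 CPM. In Dmrt2 knockouts it stood at 0.869 to 1.07 CPM against 0.0514 to 0.397 CPM in controls. Its log2 fold change there was 2.28 (edgeR adjusted p = 0.0984). Hmx2 was higher in Dmrt2 knockouts, at 13.7 to 14.3 against 3.55 to 5.03 CPM (log2 fold change 1.80, edgeR adjusted p = 2.95e-05). Dmrt2 lay above every control in 5 of 6 Hmx3 Hmx2 knockouts (log2 fold change 0.32, edgeR adjusted p = 0.185). In the libraries labelled triple knockout Dmrt2 was not lower but higher, at 17.7 to 19.2 CPM against 10.7 to 12.1 CPM, so they are called by their label throughout. Libraries held 52286824 to 127339273 reads in genes. In the Dmrt2 line 1 of 3 knockout and 3 of 3 control libraries held Y-linked reads. Such reads occurred in 2 of 6 knockout and 4 of 6 control libraries of the Hmx3 Hmx2 line, and in 2 of 3 libraries of each group of the triple line. Marker sums of other cells moved with the groups in 2 lines: principal cell markers (6 genes) summed to 519 to 566 CPM in Dmrt2 knockouts and 589 to 849 CPM in controls, and to 433 to 544 against 557 to 624.6 CPM in the triple line, where intercalated cell markers (6 genes) summed to 261 to 278 against 205 to 229 CPM. Such sums are not cell counts. In the Dmrt2 line Aqp2 averaged 292 CPM in knockouts and 420 CPM in controls, and Aqp3 was lower (log2 fold change −0.31). Scnn1b (−0.03), Scnn1g (−0.04) and Fxyd4 (−0.05) differed little, and Avpr2, at most 0.377 CPM, was above 0 (1.15). Of 6 intercalated cell markers edgeR's quasi-likelihood test called 2 higher and 1 lower in the Dmrt2 line, and likewise in the triple line. Over all genes 0.444% and 1.03% were called. The part of these sums in the results below was not tested.

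The 9 genes covered a wide range of levels in control kidneys. Compared per kilobase of annotated exon over the 12 control libraries, Wnk4 was the highest with 31.1 ± 3.88 CPM per kb (SD, n = 12). Slc12a3 followed with 17.3 ± 3.25, Wnk1 with 14.4 ± 1.92, Stk39 with 12.7 ± 0.805, Cnnm2 with 10.1 ± 1.17 and Klhl3 with 5.83 ± 1.23 CPM per kb. Far lower were genes of magnesium handling, Trpm6 with 0.603 ± 0.116 and Egf with 0.560 ± 0.0694 CPM per kb, and Pvalb was the lowest with 0.138 ± 0.140. The control ranges of Wnk4 (24.5 to 35.9) and Slc12a3 (10.04 to 21.1 CPM per kb) did not overlap, and neither did those of Klhl3 and Trpm6 or of Egf and Pvalb. Every other pair of neighbours in this order overlapped: Slc12a3 with Wnk1, Wnk1 with Stk39, Stk39 with Cnnm2, Cnnm2 with Klhl3, and Trpm6 with Egf. Lengths are unions of all annotated exons, so a gene with long or alternative transcripts reads lower on this scale.

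Slc12a3, the defining gene of the segment (chromosome 8, 95055829 to 95092842 on mm39, plus strand), had 8680 to 26740 reads in every library. Pvalb (chromosome 15, 78075314 to 78090600) had 0 to 68 reads, and the adult early-segment marker was thus near the limit of detection at this age. Control replicates 4 and 5 of the Hmx3 Hmx2 line had no Pvalb read, where a floor of 3 reads equals 0.0539 and 0.0492 CPM. Reads mostly came in pairs, so the level that could be missed is higher than this floor. Control levels were not the same in every line. Slc12a3 averaged 145 CPM in Dmrt2 controls, 217 and 201 CPM in the first and second Hmx3 Hmx2 tables and 205 CPM in triple-line controls. Control means of Klhl3 ran from 34.5 CPM in Dmrt2 controls to 54.9 CPM in triple-line controls, whereas Stk39 lay between 59.9 and 67.4 CPM in all 4. Line and table cannot be told apart, so each knockout was compared only with controls of its own line. The main Hmx3 Hmx2 tests had a term for the table. Ranges, medians and counts of Hmx3 Hmx2 libraries pool both tables unless a table is named.

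**Figure D1:**
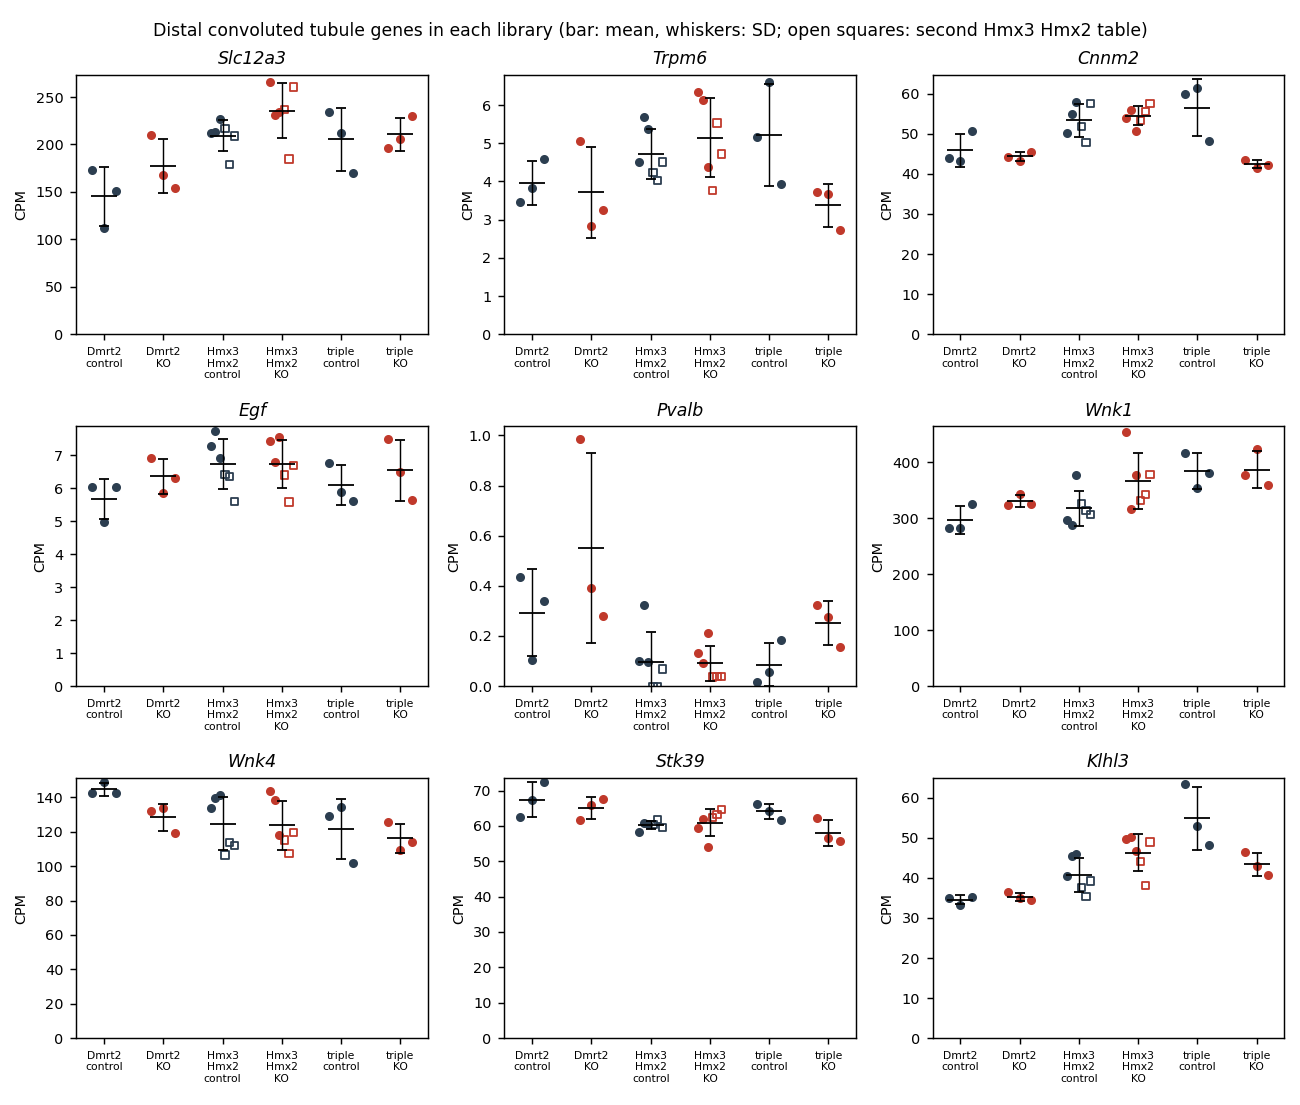
Level of each distal convoluted tubule gene in every library, in CPM on a linear axis from 0, by group, with dark symbols for controls, red for knockouts, open squares for the second Hmx3 Hmx2 table, a bar for the group mean and whiskers for the SD. In the triple line all knockout points of Cnnm2, Trpm6 and Klhl3 lie below the control points, as do those of Wnk4 in the Dmrt2 line, and Pvalb does not pass 0.985 CPM anywhere.

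In Dmrt2 knockouts none of the 9 genes passed edgeR's quasi-likelihood test at an adjusted p of 0.05, against 0.444% of all 19807 genes tested. Wnk4, a kinase of the NCC chain, was the 1 member whose knockout and control libraries did not overlap, a separation found for 17.4% of all genes and with the knockouts lower for 7.71%. DESeq2 also called 0, against 2.67% of all genes, and at an unadjusted p under 0.05 there were 2 (Wnk1 and Wnk4), where 12.3% of all genes lay. Log2 fold changes were above 0 for 5 of 9 genes (49.4% of all genes) with a median of 0.03. In bulk kidneys, here and below, fewer cells of a type and less RNA per cell cannot be told apart.

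Slc12a3 read 210, 168 and 154 CPM in the 3 Dmrt2 knockouts and 173, 111.6 and 151 CPM in controls. All 3 knockouts lay above the control median, but control replicate 1 was above 2 of them, so the groups overlapped. Means were 177 ± 28.9 and 145 ± 31.1 CPM (SD, n = 3 each), a log2 fold change of 0.29 ± 0.21 (SE, edgeR adjusted p = 0.675). It was 0.13 without control replicate 2, 0.15 without knockout replicate 1, 0.44 without control replicate 1 and 0.53 with Y-linked expression as a term. The low library was control replicate 2, and proximal tubule markers (6 genes: Slc34a1, Lrp2, Cubn, Slc5a2, Slc22a6 and Aqp1) also had their lowest sum of the table there, 2307 CPM against 2566.5 to 3045.5 CPM in the other 5.

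Wnk4, a kinase that regulates NCC (chromosome 11, 101151393 to 101168235), read 132, 134 and 119 CPM in Dmrt2 knockouts and 143, 149 and 143 CPM in controls. Every knockout was below every control. The means of 128 ± 7.89 and 145 ± 3.57 CPM differed by a log2 fold change of −0.17 ± 0.06 (edgeR adjusted p = 0.261). Gm11615, an antisense gene, shares 306 exon bases with Wnk4, or 7.38% of its length, and counting is not stated to use strand, so reads there cannot be assigned to one of the pair.

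Wnk1, which is expressed in many cell types and whose short kidney-specific isoform cannot be separated in gene-level counts (chromosome 6, 119900930 to 120015633), read 324, 343 and 325 CPM in Dmrt2 knockouts against 283, 283 and 325 CPM in controls. Control replicate 3 lay among the knockouts. The log2 fold change was 0.15 ± 0.06 (edgeR adjusted p = 0.356). Stk39 (−0.05 ± 0.06) and Klhl3 (0.03 ± 0.06) differed by less than the spread between libraries.

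The magnesium genes overlapped as well. Trpm6 read 5.07, 2.82 and 3.25 CPM in Dmrt2 knockouts and 3.47, 3.83 and 4.59 CPM in controls, with 1 knockout above and 2 below all controls. Its log2 fold change of −0.09 ± 0.21 turned to 0.36 with Y-linked expression as a term in the fit, and to 0.06 without knockout replicate 2 or 0.02 without control replicate 3. Cnnm2 was at 44.3 ± 1.10 against 45.9 ± 4.10 CPM (−0.05 ± 0.07) and Egf at 6.36 ± 0.521 against 5.68 ± 0.613 CPM (0.16 ± 0.13). Trpm6 and Cnnm2 lie on chromosome 19, as Dmrt2 does, 6.78 and 21.09 megabases from it.

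Pvalb had 68, 24 and 36 reads in Dmrt2 knockouts and 32, 8 and 24 in controls, or 0.985, 0.390 and 0.282 against 0.437, 0.103 and 0.340 CPM. Knockout replicate 1 was high and the others lay among the controls (log2 fold change 0.89 ± 0.59, edgeR adjusted p = 0.589). That value was 0.18 without knockout replicate 1, 0.48 without control replicate 2 and at most 1.31 without any other single library, and it was 1.75 with Y-linked expression as a term. Fast skeletal muscle and some neurons also make parvalbumin. A sum over 10 muscle markers, of which Acta1 and Ckm reached at most 2.29 and 0.355 CPM and none was at 0 reads throughout, was 13.7 to 14.5 CPM in knockouts and 15.1 to 15.8 CPM in controls, and 8 neuron markers summed to 5.13 to 5.35 and 4.18 to 5.39 CPM.

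None of the 52 genes of 6 related lists was called in the Dmrt2 comparison by edgeR's quasi-likelihood test, against 0.444% of all genes. At an unadjusted p under 0.05 there were 13, 8 higher and 5 lower, where 12.3% of all genes lay, 6.99% higher and 5.34% lower. DESeq2 called 2 of the 51 it tested, against 2.67% of all genes. Among 10 regulators of the WNK and SPAK chain the lowest log2 fold changes were those of Cab39l (−0.08) and Oxsr1 (−0.04) and the highest those of Wnk3 (0.18) and Nr3c2, the mineralocorticoid receptor (0.23). Among 13 magnesium genes they were those of Kcna1 (−0.37, with group means under 0.3 CPM) and Cnnm1 (−0.28), and of Cldn19 (0.17) and Trpm7 (0.21), a channel kinase related to Trpm6. In the list for basolateral salt exit Kcnj16 was at −0.08 and Kcnj10 at 0.14. Kcnj10 and Kcnj16 together form the basolateral potassium conductance of the segment.

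The widest log2 fold changes were among the calcium genes of the late distal convoluted and connecting tubule, 8 genes with a median of −0.17 against 0.00 for all genes tested. S100g, the small calcium-binding protein calbindin-D9k, stood at 94.6 CPM in Dmrt2 knockouts and 194 CPM in controls (−1.04 ± 0.33, edgeR adjusted p = 0.349). It passed the threshold in 1 of 13 alternative fits, the joint edgeR fit of all 24 libraries (adjusted p = 0.0387). Over these alternatives its log2 fold change lay between −1.27 and −0.65. Klk1 (−0.43) was next lowest, and Atp2b4 (0.07) and Vdr, the vitamin D receptor (0.26), were highest. Distal nephron transcription factors ran from Irx3 (−0.11) and Irx1 (−0.01) to Tfap2b (0.19) and Sall3 (0.39). Thick ascending limb genes ran from Ptger3 (−0.35) and Umod (−0.07) to Cldn10 (0.28) and Casr, the calcium-sensing receptor (0.53).

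In Hmx3 Hmx2 knockouts 8 of the 9 genes could be tested, since Pvalb did not pass the filter on low counts, and edgeR's quasi-likelihood test called 0 of them, against 0.021% of 19050 genes. DESeq2 called 0 as well, against 0.0267%. Wnk1 and Klhl3 had an unadjusted p under 0.05, as did 4.93% of all genes. With both tables pooled no member's groups were separated in CPM, where 0.0787% of all genes were. Within the first table the knockouts lay above the controls for Slc12a3 (231 to 266 against 212 to 227 CPM) and Klhl3. Within the second they did so for Wnk1 (332 to 378 against 307 to 325 CPM) and Stk39. The share of all genes so separated within a table was not counted. Of the 8 log2 fold changes 7 were above 0, the median being 0.07, with 47% of all genes above 0.

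Slc12a3 ranged from 185 to 266 CPM in the 6 Hmx3 Hmx2 knockouts, with a median of 235, and from 179 to 227 CPM in the 6 controls, with a median of 213. Of the knockouts 5 lay above every control, and replicate 5 was low, as was control replicate 5. The means of 236 ± 28.9 and 209 ± 16.1 CPM (SD, n = 6 each) gave a log2 fold change of 0.17 ± 0.08 (edgeR adjusted p = 0.944). It was 0.17 in each table alone. Proximal tubule markers summed to 2710.5 CPM in knockout replicate 5 and 4049.9 CPM in replicate 1, the lowest and the highest of the 12 libraries, and these 2 were also the lowest and highest knockouts for Slc12a3. Control replicate 5, the lowest control for Slc12a3, summed to 3009 CPM, inside the control range of 3000 to 3430 CPM.

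Klhl3 (chromosome 13, 58148042 to 58261406) ranged from 38.2 to 50.2 CPM in knockouts (median 47.8) and from 35.3 to 45.9 CPM in controls (median 39.8). Of 6 knockouts 4 were above every control of both tables and none below. In the first table Klhl3 knockouts read 46.6 to 50.2 against 40.4 to 45.9 CPM in controls. In the second they read 38.2 to 49.0 against 35.3 to 39.2 CPM, where only knockout replicate 5 overlapped. The log2 fold change was 0.19 ± 0.06, with an unadjusted p of 0.00421 and an adjusted p of 0.944 by edgeR, and 0.16 and 0.22 in the first and second table alone. Wnk1 ranged from 317 to 455 CPM in knockouts (median 360) and from 288 to 377 CPM in controls (median 310). Its highest value was in knockout replicate 1, and the log2 fold change was 0.20 ± 0.09 (edgeR adjusted p = 0.944).

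With both tables pooled the other members overlapped widely. Wnk4 ranged from 108 to 144 CPM in knockouts (median 119) and from 106.5 to 141 CPM in controls (median 124), and both groups were lower in the second table. Its log2 fold change was −0.01 ± 0.05, and that of Stk39 was 0.01 ± 0.04, with knockouts at 54.1 to 64.5 CPM around the narrow controls at 58.4 to 61.9. In the first table Stk39 knockouts read 54.1 to 61.9 against 58.4 to 60.9 CPM in controls. In the second they lay above all controls, at 62.3 to 64.5 against 59.5 to 61.9 CPM. Cnnm2 ranged from 50.7 to 57.6 CPM in knockouts (median 54.7) and from 47.8 to 57.9 in controls (median 53.4), a log2 fold change of 0.03 ± 0.05. Trpm6 ranged from 3.76 to 6.35 CPM in knockouts (median 5.12) and from 4.02 to 5.69 CPM in controls (median 4.51), a log2 fold change of 0.12 ± 0.11. Egf, whose exons overlap those of the antisense genes 6330410L21Rik and Gm42697, ranged from 5.59 to 7.56 and from 5.60 to 7.74 CPM (0.00 ± 0.07).

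Pvalb was at 0.0368 to 0.213 CPM in Hmx3 Hmx2 knockouts and 0 to 0.325 CPM in controls, that is at 0 to 30 reads. The highest was control replicate 2. Neuron markers (8 genes) summed to 23.5 CPM in that library and to 5.07 to 18.95 CPM in the other 5 controls, and to 4.97 to 23.5 CPM in knockouts. Knockout replicate 2 also reached 23.5 CPM, with Pvalb at 0.0906 CPM. These sums were 6.91 to 23.5 CPM in the first table and 4.97 to 7.67 CPM in the second. Muscle markers summed to 15.7 to 19.4 CPM in controls and 16.2 to 21.7 CPM in knockouts. The part of these cells in the Pvalb values of any line was not tested.

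Of the 52 listed genes edgeR's quasi-likelihood test called 0 in the Hmx3 Hmx2 comparison, against 0.021% of all genes, and DESeq2 called 0, against 0.0267%. At an unadjusted p under 0.05 there were 6, 4 higher and 2 lower, where 4.93% of all genes lay, 2.2% higher and 2.73% lower. WNK chain regulators ran from Wnk2 (−0.03) and Cul3, the cullin that KLHL3 works with (−0.01), to Wnk3 (0.15) and Nr3c2 (0.17). Magnesium genes ran from Cnnm3 (−0.06) and Cnnm1 (−0.06) to Trpm7 (0.08) and Egfr, the EGF receptor (0.10). Of the basolateral genes Bsnd, which encodes barttin, was at 0.04, Kcnj16 at 0.09 and Kcnj10 at 0.11. No gene of these 3 lists passed the test.

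Calcium genes were all above 0 in the Hmx3 Hmx2 comparison, 8 of 8 with a median of 0.09 against −0.01 for all genes tested, from S100g (0.04) and Atp2b1 (0.05) to Klk1 (0.22) and Slc8a1, the sodium-calcium exchanger (0.25). Distal transcription factors ran from Irx1 (−0.09) and Irx2 (−0.07) to Tfap2b (0.05) and Sall3 (0.11). Thick ascending limb genes ran from Cldn10 (−0.05) and Ptger3 (−0.03) to Kcnj1 (0.08) and Casr (0.09). None of these passed it either.

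In the libraries labelled triple knockout Cnnm2 was lower than in controls, and it was the 1 of 9 genes that edgeR's quasi-likelihood test called, against 1.03% of all 21537 genes and 0.446% called lower. At an unadjusted p under 0.05 there were 4 members, Cnnm2, Klhl3, Trpm6 and Stk39, all lower, where 17.9% of all genes lay and 8.63% were lower. Groups did not overlap for 3 members, again all lower, against 24.5% of all genes and 12.9% with the knockouts lower. Log2 fold changes were above 0 for 4 of 9 members and 50.2% of all genes, and the median over the members was −0.06 against 0.00.

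Cnnm2 (chromosome 19, 46750035 to 46868631, plus strand) read 43.5, 41.5 and 42.2 CPM in the libraries labelled triple knockout and 59.9, 61.4 and 48.3 CPM in controls. The knockouts were tightly grouped below all controls, of which replicate 3 was the nearest. The means of 42.4 ± 1.02 and 56.5 ± 7.14 CPM (SD, n = 3 each) gave a 1.33-fold lower level, a log2 fold change of −0.41 ± 0.08 (edgeR adjusted p = 0.0499). The call sat at the threshold. It was lost with relative log expression factors (adjusted p = 0.0538), with a filter at a mean of 1 CPM (0.0565), with Y-linked expression as a term (0.0719), with the replicate number as a block (0.0958), and without knockout replicate 1 (0.110), 2 (0.168) or 3 (0.185) or control replicate 1 (0.108) or 2 (0.125). DESeq2 called it, as it did 5.97% of all genes, and the log2 fold change lay between −0.52 and −0.35 in all these fits.

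Klhl3 read 46.5, 43.0 and 40.7 CPM in the libraries labelled triple knockout and 63.4, 53.1 and 48.1 CPM in controls. Every knockout was below every control. The log2 fold change was −0.33 ± 0.10 (edgeR adjusted p = 0.141), and DESeq2 called it (adjusted p = 0.0109). Trpm6 (chromosome 19, 18727347 to 18869875) read 3.73, 3.66 and 2.74 CPM against 5.15, 6.59 and 3.93 CPM, again without overlap. Its log2 fold change was −0.63 ± 0.19 (edgeR adjusted p = 0.151, DESeq2 0.0244). Without control replicate 3, the lowest control for each of these genes, edgeR called both, Klhl3 with an adjusted p of 0.0269 and Trpm6 with 0.0379.

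Slc12a3 read 196, 206 and 230 CPM in the libraries labelled triple knockout and 234, 213 and 170 CPM in controls. The knockouts all fell inside the control range. The log2 fold change was 0.04 ± 0.12 (edgeR adjusted p = 0.898), and it was −0.09 without control replicate 3 and −0.04 without knockout replicate 3. Control replicate 3 also had the lowest proximal tubule marker sum of the line, 2696 CPM against 2951 to 3052 CPM in the other 5, and the lowest thick ascending limb sum, 730 against 842 to 1027 CPM. Knockout replicate 3, the highest knockout for Slc12a3, had the lowest proximal tubule sum of the knockouts, 2967 CPM.

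Among the kinases, Stk39 (chromosome 2, 68040789 to 68302612) read 62.3, 56.4 and 55.6 CPM against 66.2, 64.3 and 61.8 CPM in controls, with 1 knockout inside the control range (−0.14 ± 0.06, edgeR adjusted p = 0.237). Wnk1 was at 387 ± 33.7 and 384 ± 31.6 CPM (0.02 ± 0.07) and Wnk4 at 116.3 ± 8.46 and 121.7 ± 17.6 CPM (−0.06 ± 0.11), each with overlapping libraries. Egf (chromosome 3, 129471214 to 129548965, minus strand) was at 6.55 ± 0.934 and 6.10 ± 0.600 CPM (0.11 ± 0.13). Pvalb had 32, 26 and 18 reads in knockouts and 2, 6 and 20 in controls, so control replicate 3 lay above 1 knockout (log2 fold change 1.53 ± 0.70, edgeR adjusted p = 0.280). The log2 fold change was 2.71 without that control and 1.05 without control replicate 1, the highest and lowest values when 1 library was left out. Muscle markers summed to 13.002 to 15.4 CPM in these knockouts and 15.5 to 17.0 CPM in controls.

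**Figure D2:**
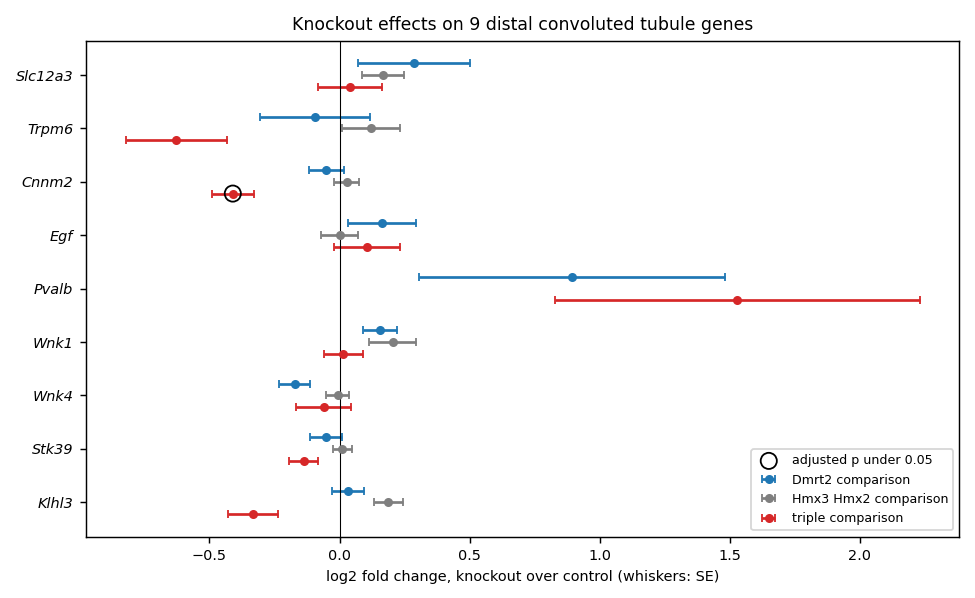
Log2 fold change of knockout over control for each gene in the Dmrt2 (blue), Hmx3 Hmx2 (grey) and triple (red) comparisons, with whiskers for the SE and a ring at an adjusted p under 0.05. Cnnm2 in the triple comparison (−0.41) carries the 1 ring, Trpm6 (−0.63) and Klhl3 (−0.33) lie on the same side without one, and Pvalb has no Hmx3 Hmx2 value because it was not tested there.

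Of 52 listed genes 2 were called lower by edgeR's quasi-likelihood test and 0 higher, S100g and Slc8a1, both calcium genes of the late distal convoluted and connecting tubule, against 0.446% of all genes called lower. At an unadjusted p under 0.05 there were 19, 14 of them lower, where 17.9% of all genes lay and 8.63% were lower. DESeq2 called 8, against 5.97% of all genes. S100g was at 61.6 ± 0.384 CPM in the libraries labelled triple knockout and 171 ± 33.1 CPM in controls (−1.47 ± 0.15, edgeR adjusted p = 0.0239), and Slc8a1 at 124 ± 9.61 and 159 ± 9.72 CPM (−0.35 ± 0.06, 0.0330). The call of S100g was lost without knockout replicate 1 (0.0541), 2 (0.0752) or 3 (0.132) or control replicate 2 (0.0910). That of Slc8a1 was lost in the joint fit (0.139), with the replicate block (0.0866), and without knockout replicate 1 (0.0919) or 3 (0.137) or control replicate 1 (0.0781) or 2 (0.0801). Calb1, calbindin-D28k, was at 71.2 CPM against 158 CPM (−1.14 ± 0.18, adjusted p = 0.0804), and the highest of the 8 calcium genes were Vdr (0.02) and Atp2b4 (0.09), around a median of −0.36.

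The WNK chain regulators were below 0 in 9 of 10 cases in the triple comparison, with a median of −0.10, and none was called. They ran from Wnk3 (−0.26) and Nr3c2 (−0.24) to Sgk1 (−0.07) and Wnk2 (0.29), the exception. Magnesium genes other than the members ran from Cnnm1 (−0.24) and Kcna1 (−0.17) to Slc41a1 (0.16) and Cldn19 (0.25), with a median of −0.08. The SE of Cnnm1 was 0.21 and its adjusted p by edgeR was 0.575. Basolateral genes were below 0 in 6 of 7 cases, among them Kcnj10 (−0.22), and Kcnj16 was above it (0.09). Distal transcription factors ran from Emx1 (−0.30) and Irx1 (−0.09) to Pou3f3 (0.01) and Tfap2b (0.03), and thick ascending limb genes from Ptger3 (−0.64) and Kcnj1 (−0.19) to Cldn10 (0.22) and Casr (0.25). None of the genes in this paragraph was called.

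**Figure D3:**
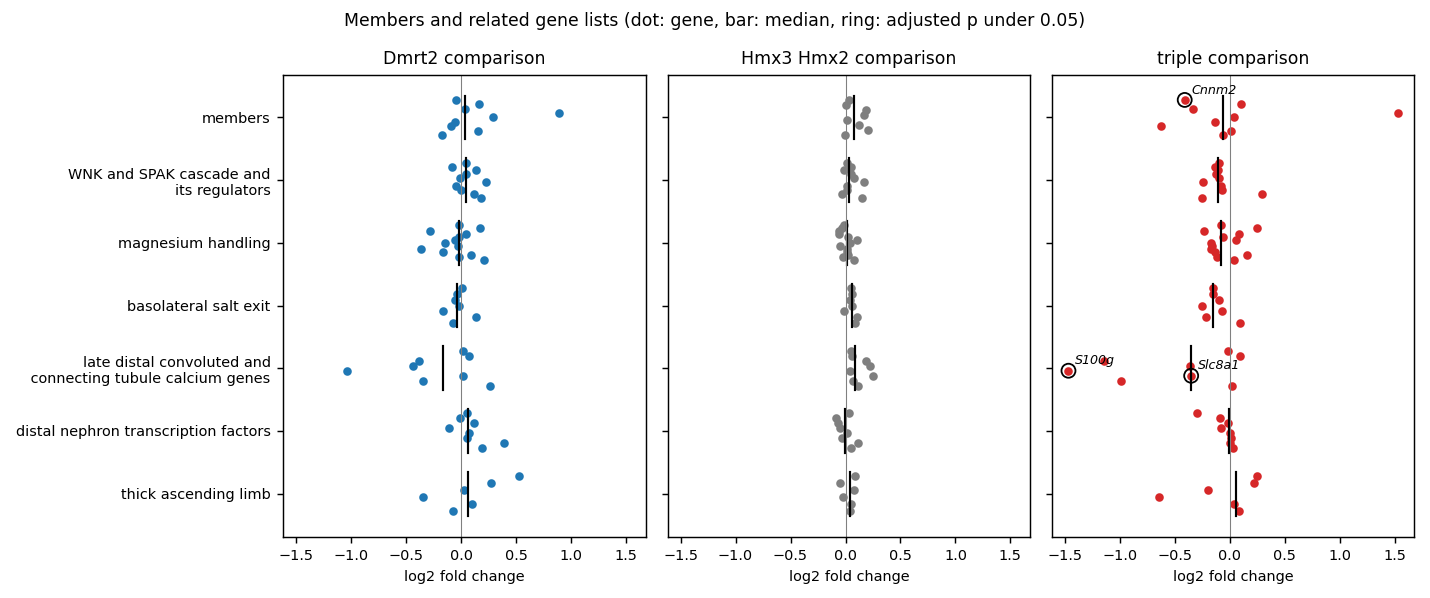
Log2 fold changes of the members and of 6 related lists in the 3 comparisons, 1 dot per gene, with a bar at each list's median and a ring at an adjusted p under 0.05. The ringed genes are Cnnm2, S100g and Slc8a1 in the triple comparison, and the calcium genes have the lowest median there (−0.36) and also in the Dmrt2 comparison (−0.17).

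Whether the effects differed between lines was tested in one fit over all 24 libraries, each effect being taken against its own controls. Between the triple line and the Hmx3 Hmx2 line 2 of 9 members differed by edgeR's quasi-likelihood test, against 0.837% of all 22101 genes. The effect on Klhl3 differed by −0.53 ± 0.10 on the log2 scale (adjusted p = 0.0129), being −0.33 in the triple line and 0.19 in the Hmx3 Hmx2 line. That on Cnnm2 differed by −0.45 ± 0.10 (adjusted p = 0.0238), and that on Trpm6 by −0.76 ± 0.25 without passing the test (adjusted p = 0.174). At an unadjusted p under 0.05 there were 4 members, these and Stk39, where 12.9% of all genes lay. The difference on Cnnm2 was lost without knockout replicate 2 (0.0710) or 3 (0.0883) or control replicate 1 (0.0739) or 2 (0.0891) of the triple line, and that on Klhl3 without knockout replicate 3 (0.0662).

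Between the triple and the Dmrt2 line 0 of 9 members differed by edgeR's quasi-likelihood test, against 0.33% of all genes. Cnnm2 (−0.36 ± 0.11, adjusted p = 0.191) and Klhl3 (−0.37 ± 0.12, 0.224) had an unadjusted p under 0.05, as did 11.1% of all genes. Between the Dmrt2 and the Hmx3 Hmx2 line 0 members differed, nor did any at an unadjusted p under 0.05, with 0.127% and 7.4% of all genes. The second and first Hmx3 Hmx2 tables differed in their effect on 0 members and on 0% of all genes, with 0 members and 2.45% of genes at an unadjusted p under 0.05. DESeq2 was not fitted to these differences.

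The genes whose pattern over the 24 libraries was most like that of Slc12a3 were sought with the distance over libraries of log2(CPM + 0.5) after each table's mean was taken off, among 11981 genes with at least 5 CPM on average in each table. The root mean square distance was smallest for Hykk (0.119), an enzyme of hydroxylysine breakdown. Slc2a2, a glucose transporter, followed at 0.121, then Slc34a1, a phosphate transporter (0.129), Slc4a4, a bicarbonate cotransporter (0.129), Ctbs, a lysosomal chitobiase (0.129), and Slc9a3, a sodium-proton exchanger (0.130). Slc12a3 itself spread by 0.191 around its table means. Of the other members Egf was the nearest, at 0.162 and rank 278, followed by Klhl3 at 0.174 (rank 737) and Wnk1 at 0.183 (rank 1447). Wnk4 (0.207), Cnnm2 (0.213) and Stk39 (0.218) were farther from Slc12a3 than Slc12a3 was from its own table mean, and Trpm6 (0.298) and Pvalb (0.239) fell under the level needed for a rank. These distances describe libraries that share tables, depth and scaling, and were not tested.

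**Figure D4:**
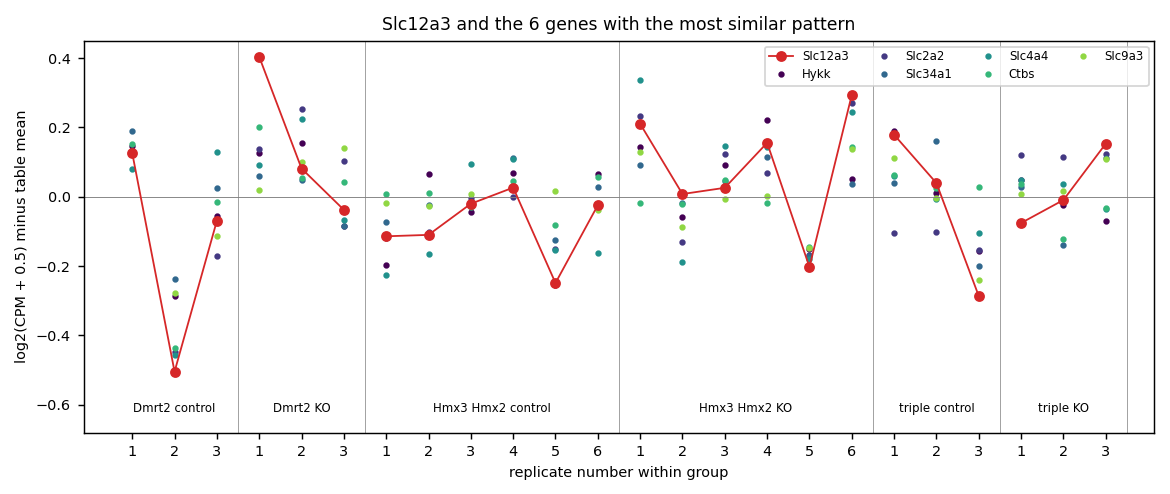
Slc12a3 (red line) and the 6 genes with the most similar pattern (dots), as log2(CPM + 0.5) minus the mean of the own table, for each library by group and replicate number. Slc12a3 and all 6 genes lie below 0 in Dmrt2 control replicate 2 and in Hmx3 Hmx2 knockout replicate 5, and the line between libraries only guides the eye.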

How the data were processed

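Whole-kidney poly(A) RNA was read at 150 bp. The deposited values are raw read counts per gene, without normalization, in 4 tables of 54393 genes. They were made with fastp 0.20.1 for trimming, STAR 2.7.0e on mm39 and featureCounts 2.0.1 per the submitters' processing notes, whereas per the file headers it was featureCounts 2.0.3 on exons of a filtered GENCODE vM29 annotation. The headers name no strand option, and 87.94% to 94.08% of counts from 1 to 19 were even, so most fragments count as 2 reads and precision is lower than the totals (52286824 to 127339273 reads) imply. Floors cover counting error only. The authors' tables also hold 2 columns that match no sample of the labels, which were not used.

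Groups came from the sample titles. Each knockout was tested against controls of its own table with edgeR 4.0.16 (quasi-likelihood F test, robust, TMM factors, filterByExpr with a minimum count of 10 and total of 15, R 4.3.3), with Benjamini-Hochberg adjustment over all genes tested and a threshold of 0.05. The Hmx3 Hmx2 fit had a term for the table. Differences between effects came from 1 fit of all 24 libraries with a term for the table. The SE is the log2 fold change over the root of F. CPM use TMM-scaled totals. The scripts were tested on simulated data. No 2 libraries of the same group and table agreed within sampling noise: the mean chi-square per degree of freedom of these 24 pairs was 5.23 to 27.0.

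The members and lists were chosen with earlier results of these data known. Named were all members, the targeted genes, every called gene of the 6 lists and the 2 lowest and 2 highest log2 fold changes of each, and the 6 genes most like Slc12a3. Some genes that this rule names in the list for basolateral salt exit are not reported here. Alternatives were relative log expression factors, DESeq2 1.42.0, no filter or a mean of at least 1 CPM, a joint fit, a replicate block, Y-linked expression as a term, each table alone or no table term, and leaving out each library. Leaving libraries out of the joint fit was added after seeing the data.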

Additional observations from a re-analysis of the deposited data

Results flagged for a closer look

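Slc12a3 in Hmx3 Hmx2 controls had 1 library apart from the others, replicate 5 at 179 CPM, with the other 5 between 209 and 227 CPM. Pvalb in the same group had 1 high library, replicate 2 at 0.325 CPM (30 reads), with the others between 0 and 0.101 CPM. Both gaps exceeded Dixon's 95% critical value for 6 samples, which was computed for 18 groups of 6. Each such group pools the 2 tables, which the criterion does not take into account. Control means in the first and second table were 217 and 201 CPM for Slc12a3 and 0.173 and 0.0228 CPM for Pvalb. Chance flags about 1 in 20 groups. Without control replicate 5 the log2 fold change of Slc12a3 in that comparison was 0.13, against 0.17 with all libraries.

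The effects on Cnnm2 and Klhl3 differed between the triple and the Hmx3 Hmx2 line, with differences of −0.45 and −0.53 on the log2 scale (adjusted p = 0.0238 and 0.0129 in the joint edgeR fit). All 3 libraries labelled triple knockout lay below their controls for both genes, while 5 of 6 Hmx3 Hmx2 knockouts lay above the median of the pooled controls for each.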

How the results depend on the processing

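No member was called in the Dmrt2 or the Hmx3 Hmx2 comparison under any alternative run, left-out libraries included. In the triple comparison the count of 1 called member became 0 with relative log expression factors, a mean of at least 1 CPM, Y-linked expression as a term or the replicate block, 3 with DESeq2, 2 in a joint fit of all libraries, 3 if no filter was used, and 0 to 3 when each replicate was left out. The 2 differences between effects became 0 to 2 when each of the 24 libraries was left out. The called members were lower in every one of these fits. Of the 52 listed genes, 0 to 6 were called in the Dmrt2 comparison, 0 in the Hmx3 Hmx2 comparison and 0 to 10 in the triple comparison.

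Same-numbered libraries correlated in their deviations by 0.12, 0.10 and 0.07 in the Dmrt2 line, each best with its own number, by −0.02 to 0.26 in the Hmx3 Hmx2 line and by −0.28 to −0.11 in the triple line, so the numbers are not shown to pair libraries. With the replicate block 0, 0 and 0 members were called in the 3 comparisons.

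Signs of small, uncalled log2 fold changes turned. In the Dmrt2 comparison Trpm6 went from −0.09 to 0.36 with the Y-linked term. In the Hmx3 Hmx2 comparison Egf (main value 0.0010) went to −0.0075 without a filter, −0.0062 with the Y-linked term, −0.00037 without a table term and −0.0085 in the first table alone, where Cnnm2 was −0.016 and Stk39 −0.031. Wnk4 (−0.0078) went to 0.00015 with the Y-linked term and 0.037 in the second table alone. With each replicate left out, the ranges that crossed 0 were, in the Dmrt2 comparison, −0.38 to 0.065 for Trpm6, −0.095 to 0.022 for Cnnm2 and −0.10 to 0.00035 for Stk39. In the Hmx3 Hmx2 comparison they were −0.027 to 0.037 for Egf, −0.0063 to 0.041 for Stk39, −0.012 to 0.099 for S100g, −0.030 to 0.034 for Wnk4 and −0.0076 to 0.060 for Cnnm2. In the triple comparison they were −0.00039 to 0.19 for Egf, −0.057 to 0.072 for Wnk1, −0.086 to 0.14 for Slc12a3 and −0.18 to 0.011 for Wnk4. The cause was not tested. Depth limits Pvalb most, at 0 to 68 reads, and Trpm6 and Egf had 174 to 706 and 287 to 806 reads.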
